A study of Mus musculus with 12 samples.

Results

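H3K9me2 enrichment over input was described in the prefrontal cortex of 2 familial Alzheimer's disease (FAD) mice, using the 4 FAD libraries (1 ChIP and 1 input library per mouse) out of 12 in the series. The FAD mice were C57BL/6 and 5 to 6 months old. The alleles, the promoter of the transgene, the sex of the mice and whether tissue was pooled are not given in the sources used here. The series also holds 2 wild-type (WT) mice of the same strain, tissue and age, used here as the comparison, and 2 FAD mice treated with BIX01294, an inhibitor of EHMT1 and EHMT2, which are not analysed here. Every ChIP library was divided by the input of the same mouse, over the 33787 distinct regions of the deposited FAD and WT table. A region was given the gene it overlaps, or otherwise the gene of the closest transcription start, which gave 12708 regions (37.6%) one of 4285 genes, 7190 of them by overlap.

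H3K9me2 is the dimethylated form of lysine 9 of histone H3. It is laid down mainly by the paired methyltransferases EHMT1 (GLP) and EHMT2 (G9a), covers broad silent domains and lineage-inappropriate genes, and is read by chromodomain and ankyrin-repeat proteins that help to keep genes off. In neurons the mark has been studied for its part in silencing non-neuronal and synaptic genes. Input chromatin, sequenced without the antibody, gives a background level that depends on DNA amount and mappability among other things.

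FAD libraries held 24.94 and 20.80 M reads in ChIP and 14.36 and 15.09 M in input. Of the ChIP reads, 2.15% and 3.70% fell in the regions, against 0.848% and 0.779% of the input reads. A region held a median of 12 and 20 ChIP reads but only 2 input reads in each mouse, and 22.1% and 21.9% of the regions had no input read. At Thy1, a neuronal surface gene whose promoter often drives transgenes, the mouse labelled FAD 1 held 4 ChIP and 9 input reads, and FAD 2 held 839 and 363. The WT mice held 5 and 2 ChIP reads and 2 and 12 input reads there. The mouse labelled FAD 1 thus stood with the WT mice and not with FAD 2, in input as in ChIP, so each mouse is given apart and the label is kept as a label. Microglia markers and housekeeping genes held no region, and a histone mark does not show which cells were present.

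4 promoters show what DNA lay under regions at 2-fold or more over input in both mice. They are the first 4, by the lower of both ratios, of named genes with at least 100 overlapped bases in the 250 bases before a start (RefSeq, GRCm38.p6, + strand, 5′ to 3′). Capitals mark the bases inside the region.
Obox5, an oocyte homeobox gene, chr7:15750120-15750369: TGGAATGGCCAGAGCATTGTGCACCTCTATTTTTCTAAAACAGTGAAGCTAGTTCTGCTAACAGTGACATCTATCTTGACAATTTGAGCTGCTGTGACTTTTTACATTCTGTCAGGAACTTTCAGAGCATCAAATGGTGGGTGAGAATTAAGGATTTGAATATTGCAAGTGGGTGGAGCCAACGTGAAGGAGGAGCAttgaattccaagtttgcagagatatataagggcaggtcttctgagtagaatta
Cd5l, a secreted macrophage scavenger receptor gene, chr3:87357631-87357880: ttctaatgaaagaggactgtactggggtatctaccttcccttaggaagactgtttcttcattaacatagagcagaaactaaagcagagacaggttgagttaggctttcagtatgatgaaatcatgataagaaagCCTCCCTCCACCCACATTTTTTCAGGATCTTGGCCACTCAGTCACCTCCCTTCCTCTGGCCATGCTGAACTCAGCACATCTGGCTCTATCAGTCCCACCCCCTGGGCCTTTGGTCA
Spag17, a gene of the ciliary axoneme, chr3:99885167-99885416: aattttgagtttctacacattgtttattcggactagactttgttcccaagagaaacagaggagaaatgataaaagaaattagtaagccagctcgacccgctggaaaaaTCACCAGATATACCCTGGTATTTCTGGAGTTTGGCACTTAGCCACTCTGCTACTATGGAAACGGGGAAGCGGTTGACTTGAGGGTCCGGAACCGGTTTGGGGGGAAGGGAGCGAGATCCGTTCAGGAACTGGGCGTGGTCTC
Pou5f2, a testis POU-domain factor gene, chr13:78024652-78024901: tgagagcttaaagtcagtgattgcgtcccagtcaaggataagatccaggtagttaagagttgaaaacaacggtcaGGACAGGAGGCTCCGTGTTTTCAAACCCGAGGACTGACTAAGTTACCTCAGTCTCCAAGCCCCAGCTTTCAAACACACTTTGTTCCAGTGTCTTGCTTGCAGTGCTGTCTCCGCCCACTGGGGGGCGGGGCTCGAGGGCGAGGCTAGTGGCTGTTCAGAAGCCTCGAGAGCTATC

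The Obox5 region held 15 ChIP and 0 input reads in the mouse labelled FAD 1 and 18 and 0 in FAD 2. The Cd5l region held 12 and 0, and 16 and 1. The Spag17 region held 61 and 6, and 37 and 5. All of these stood above the inputs of both mice, as did Pou5f2, with 19 and 2 in the mouse labelled FAD 1 and 33 and 2 in FAD 2. 3 of the 4 were tested as described below and did not pass, and the Cd5l region, called in WT libraries alone, held too few reads to be tested. The 250 bases before a start held 1 CG dinucleotide in Obox5, 0 in Cd5l, 10 in Spag17 and 9 in Pou5f2. Over 32851 RefSeq promoters the median was 6 CG, and 37.8% held 3 or fewer. Only 138 promoters (0.420%) were overlapped by a region. Of these, 73.9% held 3 or fewer CG, the median being 2. In 56 (40.6% of the 138) the region was at 2-fold or more in both mice, among them Nppb, Serpina1d and 6 olfactory receptor genes, which made up 12 of the 138 and 948 of all promoters. These 56 promoters also had a median of 2 CG.

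The 2 FAD mice shared few regions as the authors called them. The mouse labelled FAD 1 had 3904 called regions and FAD 2 had 21849, and 588 were called in both, which is 15.1% of the first list and 2.69% of the second. Of all 33787 regions, 1.74% were called in both, 62.9% in FAD 2 and not FAD 1, 9.81% in FAD 1 and not FAD 2, and 25.5% in WT alone. A ratio of ChIP to input was formed in each mouse as the deposited fold enrichment is, with 1 added to each count and each library scaled to its total. At 2-fold or more stood 53.3% of all regions in the mouse labelled FAD 1, 83.3% in FAD 2 and 43.9% (14837) in both. At 4-fold or more in both stood 14.5% (4887). The 14837 regions reached 2609 of the 4285 genes and the 4887 reached 1183.

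These shares rest on regions that were called from the same ChIP reads. Regions called in a WT library and in neither FAD library were not picked for high FAD reads. They were picked for the lack of a FAD call, which favours low FAD values, so they are no unselected reference. Over these 8622 regions the median log2 ratio was 0.79 in the mouse labelled FAD 1 and 1.12 in FAD 2, while the WT mice, whose reads chose the regions, stood at 2.03 and 1.76. There 44.3% of the regions were at 2-fold or more in the mouse labelled FAD 1, 52.2% in FAD 2 and 24.6% in both. Regions called in the other FAD mouse gave somewhat higher shares. Where FAD 2 and not FAD 1 was called, 48.6% of 21261 regions were at 2-fold or more in the mouse labelled FAD 1. Where FAD 1 and not FAD 2 was called, 55.4% of 3316 regions were at 2-fold or more in FAD 2. Set beside 44.3% and 52.2% in regions called in WT alone, a call in one FAD mouse went with a few percentage points more in the other.

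Across regions the mice hardly agreed in rank. Over all regions the Pearson correlation of the log2 ratios was -0.07 (Spearman -0.07), which the split calling lowers, since a region called in 1 mouse is high in that mouse by choice. Over the 8622 regions called in WT alone it was 0.09 (Spearman 0.08) and over the 588 called in both 0.22. Over the 77 regions that passed the test described below it was 0.63, against -0.08 over all 12185 tested. That test favours regions with similar ratios in both mice, so the 0.63 is no measure of their agreement. The correlation did not move steadily with input depth. By the mean of both inputs it was -0.19 under 3 reads, -0.23 from 3 to under 10, 0.06 from 10 to under 30 (450 regions) and 0.37 at 30 or more (140 regions). In regions called in WT alone the same 4 values were -0.01, -0.07, 0.09 and -0.26, the last over 12 regions. Over the 6978 regions with at least 3 input reads in both mice it was 0.19. Regions share the 4 libraries and are not independent. With reads pooled over genes it stayed low: in 240 genes with at least 10 regions the pooled fold had a median of 2.79 in the mouse labelled FAD 1 and 5.54 in FAD 2, was higher in FAD 2 in 224 genes, and correlated at 0.14 on the log2 scale (Spearman -0.04).

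**Figure D1:**
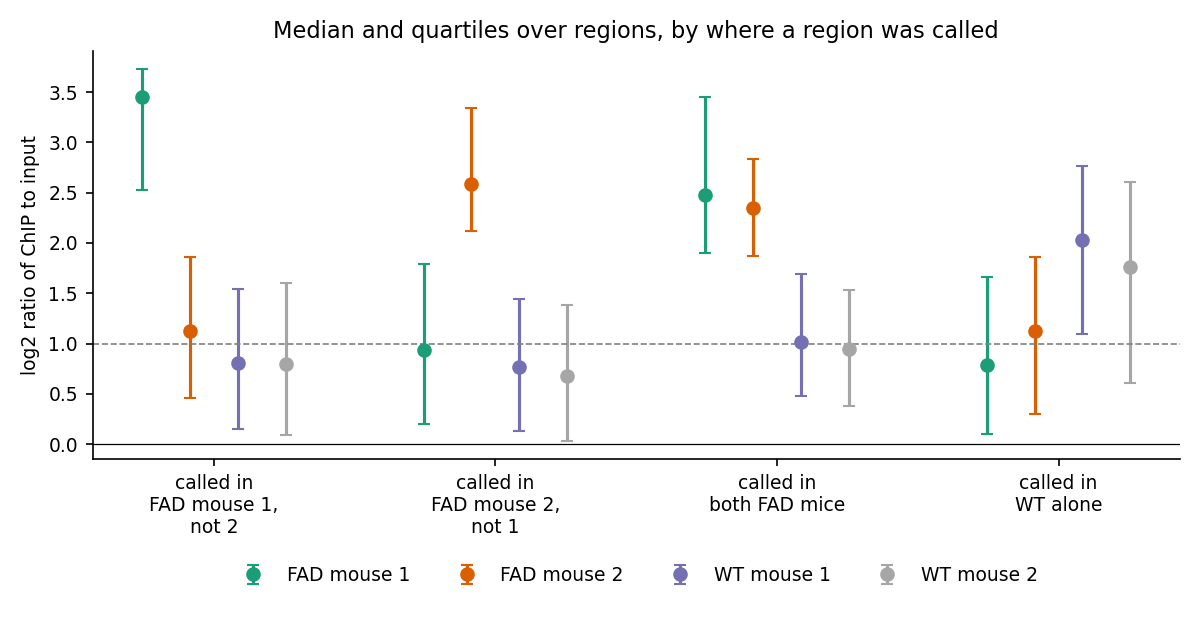
Median log2 ratio of ChIP to input (points) with quartiles over regions (bars) in each FAD and WT mouse, for regions grouped by the libraries they were called in. Each FAD mouse is highest where its own library was called (3.45 and 2.58). In regions called in WT alone both FAD medians (0.79 and 1.12) lie below the WT medians, an order that the choice of regions favours.

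Inputs were often empty in the regions called in FAD 1 alone. In the 3316 regions called in the mouse labelled FAD 1 and not in FAD 2, its input had 0 reads in 59.4% and a median of 0, against a median of 3 reads in the input of FAD 2. The median log2 ratio of the mouse labelled FAD 1 was 3.45, and 2.20 when no count was added and inputs of 0 were set to a floor of 3 reads. FAD 2 stood at 1.12 there on both scales. In the 21261 regions called in FAD 2 and not in FAD 1, the input of FAD 2 had 0 reads in 22.2%, and its median was 2.58, or 2.65 with the floor and no added count.

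FAD ChIP was tested against FAD input with edgeR's quasi-likelihood test with the mouse as a block, library totals as scaling, and Benjamini-Hochberg adjustment at 0.05. Of 12185 regions with enough reads, 77 (0.632%) were higher in ChIP and 1 (0.00821%) was lower. Regions enter the test through their ChIP reads, so this count describes the table and is no support for enrichment. At an unadjusted p under 0.05, 3311 were higher and 2 lower. Without the block 5285 (43.4%) were higher, the main test having 1 residual degree of freedom. Fits that left out 1 FAD mouse shared the spread with the WT mice and had no mouse block, so they do not compare with the main test. Their median log2 fold was 2.73 over 32986 tested regions without the mouse labelled FAD 1, and 1.51 over 30501 without FAD 2. TMM scaling over the regions moved the median log2 fold of tested regions from 2.25 to 0.28 and left 0 calls, 51 being higher at an unadjusted p under 0.05. Of the regions called in WT alone, 5 of 1604 tested (0.312%) were higher. The 77 had log2 folds of 0.95 to 8.45, a median of 3.14 and a median width of 820 bp, and 52 of them had been called in both FAD mice. Between genes lay 55, and 20 overlapped a gene. The one with the smallest adjusted p (2.39e-31, edgeR) lay between genes at chr2:83691201-83691476, where ChIP held 689 and 539 reads, the inputs 4 and 0, and WT ChIP 1893 and 894.

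The 10 overlapped genes with the highest ratios in both mice were Etfb, Magi2, Cdh18, Kcnb2, Smoc1, Kcnj3, Bank1, Gpc3, Chrm2 and Ephb1. At Kcnb2, a voltage-gated potassium channel (chr1:15470265-15470775, last intron), the mouse labelled FAD 1 held 306 ChIP and 2 input reads and FAD 2 held 164 and 5. ChIP was far above input in both, with a log2 fold of 5.35 ± 0.71 (SE, n = 2 mice, edgeR adjusted p 1.97e-10). The WT mice held 214 and 134 ChIP reads there. At Ephb1, an ephrin receptor of axon guidance (chr9:102127680-102127991, intron 3), the reads were 231 and 6 in the mouse labelled FAD 1 and 137 and 6 in FAD 2 (log2 fold 4.24 ± 0.70, edgeR adjusted p 1.07e-06).

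In Magi2, a synaptic scaffold (chr5:19757290-19757624, intron 2), ChIP held 72 and 37 reads and both inputs held 0, so the mouse labelled FAD 1 stood at least 13.8-fold and FAD 2 at least 8.95-fold above a floor of 3 input reads per library. In Cdh18, a type II cadherin (chr15:23308890-23309508, intron 4), ChIP held 37 and 28 reads and the inputs 0 (at least 7.10-fold and 6.77-fold). Both passed edgeR's test (adjusted p 0.000503 and 0.0371). Kcnj3, a G protein-gated potassium channel, held 35 and 24 ChIP reads and no input read, and Bank1, a B cell scaffold gene, 27 and 28 with none. Neither passed (edgeR adjusted p 0.0635 and 0.0785). Chrm2, a muscarinic acetylcholine receptor, had a region in its last exon (chr6:36523698-36524307) with 25 and 50 ChIP reads and 0 and 1 input reads. It just missed the threshold (edgeR adjusted p 0.0508).

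The highest of all named regions lay in intron 1 of Etfb, a mitochondrial electron transfer flavoprotein subunit (chr7:43446954-43447194). ChIP held 246 and 160 reads, and the inputs held 0 and 1. The mouse labelled FAD 1 was thus at least 47.2-fold above input and FAD 2 116-fold (95% exact counting interval 20.5 to 4614), and the WT mice held 152 and 101 ChIP reads. Intervals and floors cover counting error only. Smoc1, a secreted calcium-binding matrix protein (intron 7), held 258 and 150 ChIP reads and 1 and 5 input reads (log2 fold 5.41 ± 0.75, edgeR adjusted p 1.35e-09). 2 more genes were chosen after their values were seen. Scnn1g, a sodium channel subunit of epithelia, had a region in its last exon with 44 and 53 ChIP reads and 0 and 3 input reads. Dlgap2, a postsynaptic scaffold (intron 3), held 218 and 245 ChIP reads and 23 and 31 input reads. In each of these genes both ChIP libraries lay above both inputs. Both passed, as did Etfb and Smoc1, which were named by the same ratios.

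**Figure D2:**
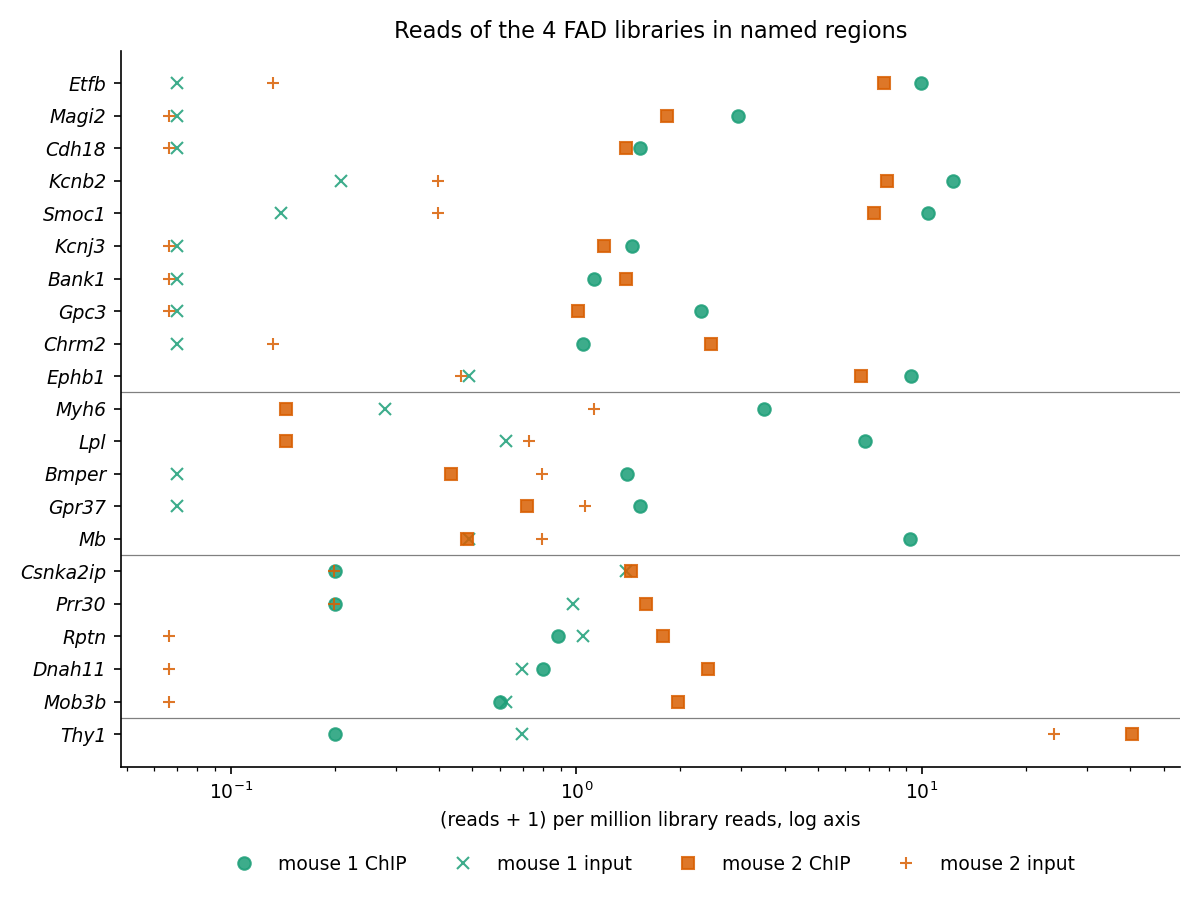
Reads plus 1, divided by the library total and given as RPM (log axis), in ChIP (filled symbols) and input (× and +) of the mouse labelled FAD 1 (green) and FAD 2 (orange), 1 region per gene. The upper 10 genes are high in both mice, the next 5 higher in the mouse labelled FAD 1, the next 5 higher in FAD 2, and Thy1 is last, with 839 ChIP and 363 input reads in FAD 2.

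Other regions that passed, named after their values were seen, had inputs far above the median of 2 reads. In Sfi1, a centrosomal gene, ChIP held 1981 and 2659 reads and the inputs 558 and 1052. In Atrnl1 ChIP held 1084 and 1020 and the inputs 157 and 221. In Aida it held 1366 and 1476 over 309 and 391. Of the 77 regions, 22 lay in the first 4 Mb of a chromosome, where 392 of all regions lie, and 3 on unplaced contigs. The first 4 Mb of chromosome 4 held 8 of them, 4 near the vomeronasal (pheromone) receptor genes Vmn1r2 and Vmn1r3 and 4 given no gene. Near Vmn1r2 (chr4:3174672-3179447) ChIP held 424 and 462 reads, the inputs 46 and 23, and the WT ChIP libraries 263 and 449. Of the 40 regions in those 4 Mb, 70.0% were at 2-fold or more in both mice.

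5 regions passed though they had been called in neither FAD ChIP library. 1 of them, between genes at chr17:88274011-88274369, held 255 and 161 ChIP reads, 0 and 6 input reads, and 259 and 115 ChIP reads in WT (edgeR adjusted p 6.00e-10). Named genes with the highest such ratios were Gpc3, Ovol2, AK157302, Mrc2 and Epha3. In Gpc3, a glypican (chrX:52578153-52578415, intron 2), ChIP held 56 and 20 reads and the inputs 0, so the mouse labelled FAD 1 was at least 10.7-fold and FAD 2 at least 4.84-fold above input (edgeR adjusted p 0.0206). WT ChIP held 151 and 36 reads and WT inputs 0. Near Ovol2, an epithelial zinc-finger repressor (chr2:144338252-144338514), ChIP held 285 and 92 reads and the inputs 1 and 4 (log2 fold 5.34 ± 0.79, edgeR adjusted p 1.75e-08). WT ChIP held 1104 and 419 reads there, above both FAD mice. Near Epha3, another ephrin receptor, ChIP held 30 and 23 reads over 4 and 4. That region did not pass (edgeR adjusted p 0.205).

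A few genes stood high in 1 mouse alone. In the mouse labelled FAD 1 they included genes strongly transcribed in heart muscle. Myh6, cardiac myosin heavy chain, had 5 regions, all called in that mouse and none in FAD 2. Its region in exon 22 (chr14:54952892-54953945) held 293 ChIP and 8 input reads in the mouse labelled FAD 1, 27 and 18 in FAD 2, and 19 and 18 ChIP reads in WT. Over the 5 regions the pooled fold was 16.4 in the mouse labelled FAD 1, 0.726 in FAD 2 and 1.28 and 0.876 in WT. Actc1, cardiac actin, stood at 13.5 and 2.09 (WT 1.00 and 0.548). Ttn, titin, stood at 5.83 and 2.59 (WT 2.04 and 1.79) and was not high in 1 mouse alone. Of its 8 regions 5 were called in the mouse labelled FAD 1 and 4 in FAD 2. Mb, myoglobin, stood at 22 and 0.594. In 2 genes the order was the opposite: Nppb, a natriuretic peptide called in both mice, stood at 3.84 in the mouse labelled FAD 1 and 6.53 in FAD 2, and Ryr2, a calcium release channel, at 2.70 and 7.34. Of 20 listed heart genes 6 were given a region, and 14, among them Myh7 and Tnnt2, were given none. Each region was given a single gene, so a listed gene that lies within another gene can be missed. The 31 regions of the list summed to 76.5 RPM (reads scaled to the library total) in the ChIP library labelled FAD 1, 27.3 in that of FAD 2, 14.4 and 11.7 in WT ChIP, and 8.08 to 11 in the inputs. The part of other cells in this was not tested.

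18 regions held at least 50 reads in the ChIP library labelled FAD 1 and at least 4 times the RPM of each other FAD or WT ChIP library, a rule set after the values were seen. Of these, 11 (61.1%) were centred in an exon or UTR, against 3.23% of all regions. To listed heart genes 9 were given, and 3 were given no gene. Their other genes were Lpl, Slc25a4, Trpv4 and Cep85l. In the 3′ UTR of Lpl, lipoprotein lipase (chr8:68905516-68906896), the mouse labelled FAD 1 held 169 ChIP and 8 input reads and FAD 2 held 2 and 10. In the 3′ UTR of Slc25a4, the mitochondrial ADP/ATP carrier, they held 82 and 7, and 4 and 6. Exon 2 of Trpv4, a cation channel, held 243 and 8, and 48 and 9. This region and that in the 3′ UTR of Actc1 were also among the 77 that passed (edgeR adjusted p 0.00747 and 0.00101). A pass in that test thus does not exclude a large difference between the mice. FAD 2 had 3 regions by the same rule, 1 at Thy1 and 2 between genes.

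Genes high in FAD 2 alone held fewer reads. At Dnah11, an axonemal dynein (intron 62), FAD 2 held 49 ChIP and 0 input reads and the mouse labelled FAD 1 held 19 and 9. At Mob3b (intron 2) FAD 2 held 40 and 0 and the mouse labelled FAD 1 held 14 and 8. At Rptn, a protein of the skin barrier (last exon), FAD 2 held 36 and 0, against 21 and 14. Near Csnka2ip FAD 2 held 29 and 2, and the mouse labelled FAD 1 held 4 and 19. In each of these 4 the ChIP of FAD 2 was above its input while that of the mouse labelled FAD 1 was at most 1.22-fold its own.

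Among regions with enough reads, Mdga2, a membrane protein that limits synapse formation, was lowest. In its intron 1 (chr12:67059201-67059684) the mouse labelled FAD 1 held 509 ChIP and 434 input reads and FAD 2 held 305 and 816. Relative to library totals, ChIP was below input in both (log2 fold -1.22 ± 0.34, edgeR adjusted p 0.0464). Near Irf4 the reads were 12 over 8 and 11 over 14, and in Ano3 22 over 13 and 18 over 14, and neither passed.

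Most regions lay between genes. Intergenic centres made up 72.3% of all regions and 72.6% of those at 2-fold or more in both mice, introns 24.5% and 23.7%, and exons or UTRs 3.23% and 3.71%. Last exons stood somewhat apart: 53.2% of 693 were at 2-fold or more in both mice, against 43.9% of all regions. In regions called in WT alone the same order held, 30.9% of 110 last exons against 24.6% of all. Other exons were at 46.5% of 254, but at 15.6% of 32 in regions called in WT alone. Olfactory receptor genes, whose coding sequence lies in 1 exon, held 114 of the 693 last exons. Only 32.3% of the 693 overlapped a named gene, and 63.9% lay within 2 kb of a start, against 5.93% of all regions.

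**Figure D3:**
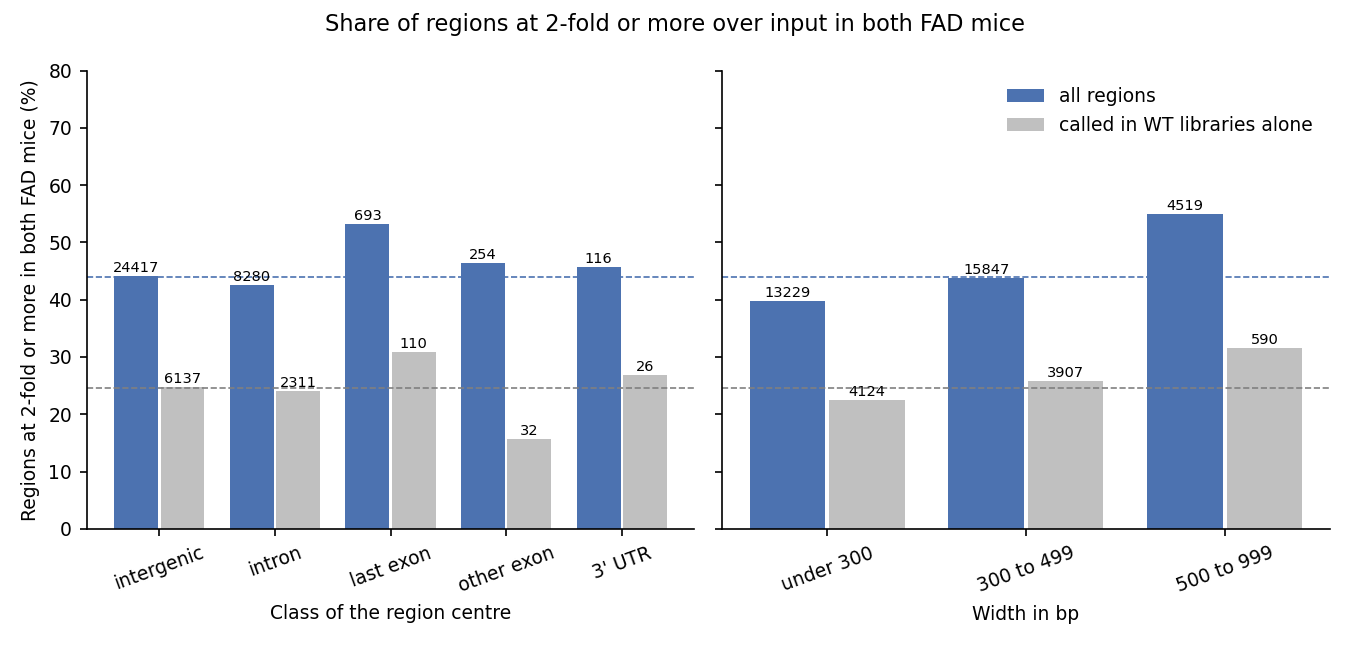
Percent of regions at 2-fold or more over input in both FAD mice by the class of the region centre (left) and by width (right), for all regions (blue) and for regions called in WT libraries alone (grey), with the number of regions above each bar and dashed lines at 43.9% and 24.6%. The bars for last exons and for 500 to under 1000 bp are the highest, and 5′ UTRs and regions of 1000 bp or more are left out, with under 20 regions called in WT alone.

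Wider regions more often stood high in both mice. Under 300 bp 39.9% of 13229 regions were at 2-fold or more in both, from 300 to under 500 bp 43.8%, from 500 to under 1000 bp 54.9%, and at 1000 bp or more 71.9% of 192. In regions called in WT alone the first 3 shares were 22.5%, 25.8% and 31.5%. Width and reads move together, since a region called over more DNA collects more reads. Distance to the closest start made little difference: 46.1% of 2005 regions within 2 kb, 43.6% from 2 to 50 kb, 44.0% from 50 to 500 kb and 42.2% beyond 500 kb. In regions called in WT alone the 4 shares ran from 22.7% to 25.3%. The autosomes ranged from 40.8% (chromosome 5) to 47.0% (chromosome 7), and the X chromosome, with 166 regions, stood at 53.0%.

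Very long genes held the most regions at 2-fold or more in both mice. Cntnap2, a contactin-associated adhesion protein, had 35 of 62, Lrp1b, a lipoprotein receptor relative, 24 of 51, Sntg1, a brain syntrophin, 24 of 42, and Fhit, a gene over a common fragile site, 21 of 50. Shares near 43.9% are the background, and Csmd1, with 13 of 54 (24.1%), lay below it. Pooled over its regions Cntnap2 stood at 3.48-fold in the mouse labelled FAD 1 and 5.72-fold in FAD 2, Lrp1b at 2.47 and 5.06, and Sntg1 at 3.50 and 6.25. FAD 2 was the higher mouse in each of these 3. A list of 29 very long brain genes stood at 40.4% of 624 regions, 1 of 179 tested passing (Magi2). Nrg3, a neuregulin, had 18 of 31 regions at 2-fold or more in both and folds of 4.55 and 4.47. At a single region in intron 10 of Cntnap2 (chr6:46295149-46295637) ChIP held 27 and 30 reads and the inputs 0 and 3, and it did not pass (edgeR adjusted p 0.161).

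Synaptic gene lists lay near the share of all regions. Ionotropic glutamate receptor genes had 133 regions in 9 genes, 50 of them (37.6%) at 2-fold or more in both mice, with medians of 0.94 in the mouse labelled FAD 1 and 2.12 in FAD 2, against 1.08 and 2.24 over all regions. None of their 48 tested regions passed. Postsynaptic scaffold and adhesion genes stood at 39.4% of 193 (2 passed), GABA receptor genes at 41.2% of 85, voltage-gated channels at 42.1% of 171 (1 passed, Kcnb2), metabotropic receptors at 43.1% of 58, and presynaptic release genes at 47.1% of 70. In regions called in WT alone, where the share of all was 24.6%, ionotropic glutamate receptor genes had 10 of 39 at 2-fold or more in both mice, postsynaptic genes 17 of 66, GABA receptor genes 8 of 24 and voltage-gated channels 11 of 45. Regions in the delta receptor gene Grid1 (chr14:35389040-35389380, intron 8) held 28 and 28 ChIP reads over 2 and 0 input reads, and in Gabrg3, a GABA receptor subunit, 36 and 35 over 3 and 1. In both genes each ChIP library was above its input, and neither region passed (edgeR adjusted p 0.157 and 0.153).

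Adhesion and guidance genes were near the whole as well. Contactin and contactin-associated genes stood at 47.1% of 244 regions, axon guidance receptors at 46.4% of 196, type II cadherins at 44.4% of 124 and non-clustered protocadherins at 44.3% of 97. In Pcdh15, a protocadherin of hair cells (chr10:73931085-73931609, intron 1), ChIP held 38 and 38 reads over 2 and 3, and in the cadherin Cdh12 37 and 35 over 2 and 2. Near Robo1, a receptor for Slit guidance cues, ChIP held 42 and 24 reads over 0 and 2. None of these 3 passed (edgeR adjusted p 0.153, 0.151 and 0.144). Of the tested regions 1 of 63 passed in axon guidance receptors (Ephb1) and 1 of 51 in type II cadherins (Cdh18). In contactin and contactin-associated genes 0 of 87 passed, and in non-clustered protocadherins 0 of 36.

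Of further gene families, many of which lie in clusters, olfactory receptors held the most regions, 1.68% of all, against 1.85% in the 29 very long brain genes. Olfactory receptors had 568 in 422 genes, 47.9% at 2-fold or more in both mice (medians 1.20 and 2.29), with none of 224 tested regions passing. Vomeronasal receptors had 169 in 103 genes, 48.5% at 2-fold or more, and 8 of 63 tested passed, against 77 of 12185 (0.632%) over all tested regions. All 8 lay between genes, near Vmn1r2, Vmn1r3, Vmn1r238 or Vmn2r125, those of the first 3 genes in the first 4 Mb of a chromosome. Of the vomeronasal regions that overlapped a gene of the list, 15 of 40 (37.5%) were at 2-fold or more in both mice. Keratin and skin clusters stood at 50.0% of 44 regions and immune lectin-like clusters at 56.4% of 39, the highest of the lists with 30 or more regions. Of the latter, 11 regions overlapped a gene of the list and 1 of these 11 was at 2-fold or more in both mice, the others being given to the list by the closest start. Near Skint1, of that list, ChIP held 33 and 43 reads over 2 and 2 (edgeR adjusted p 0.146). Detoxification clusters stood at 40.6% of 180, solute carriers at 42.3% of 194 and zinc-finger genes at 38.9% of 198. Genes of H3K9 methylation itself held 3 regions in 2 genes, Alzheimer disease genes 2 in 1, Hox genes 3 in 2 and activity-regulated genes 4 in 3. Of these only 2 regions, both of the first list, held enough reads to be tested, and neither passed. Markers of cortical neurons held 8 regions in 6 genes, of astrocytes 5 in 1, of oligodendrocytes 6 in 2 and of endothelium 5 in 3, with none passing among the 6 tested.

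**Figure D4:**
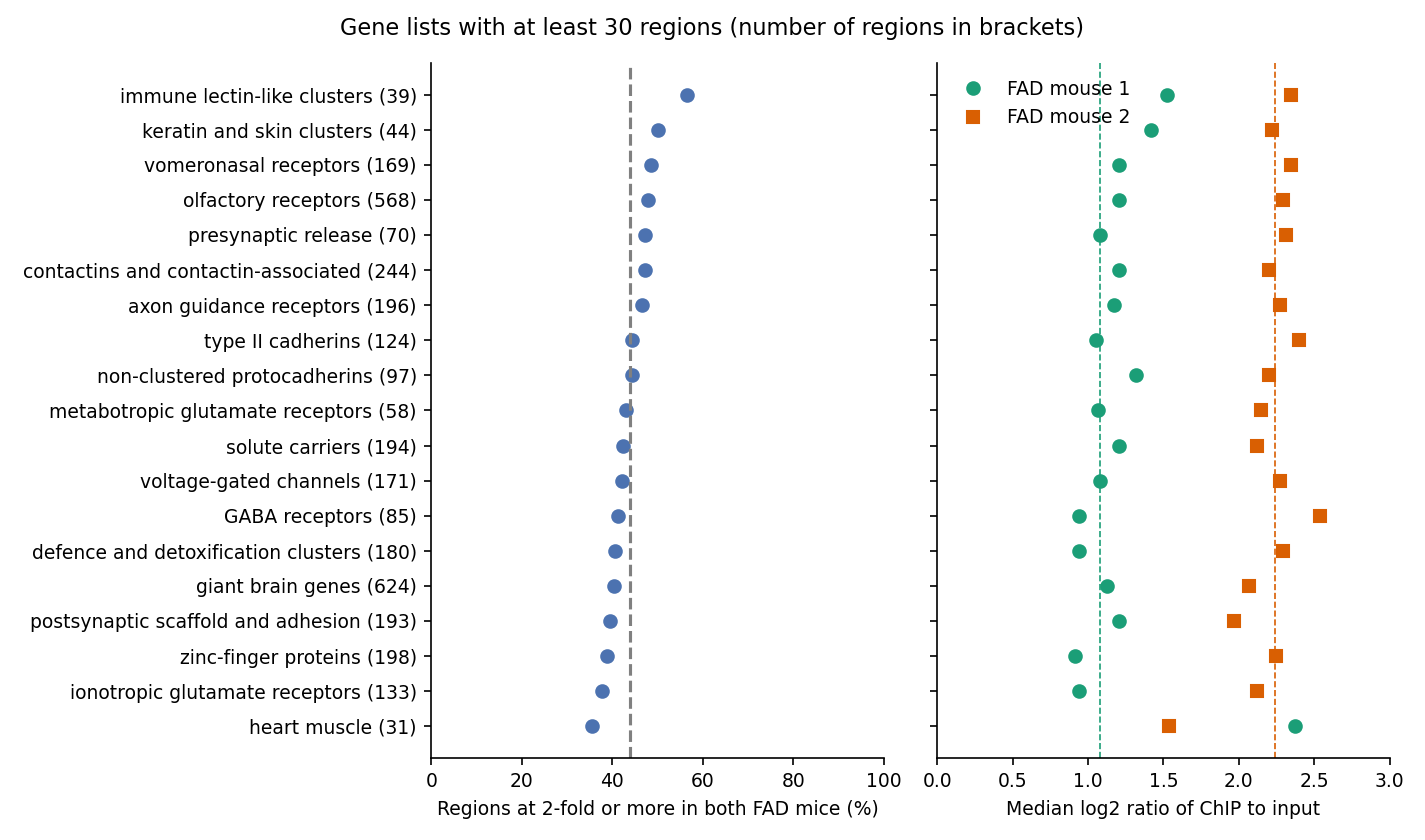
Gene lists with at least 30 regions: percent of regions at 2-fold or more in both FAD mice (left, dashed line at 43.9% for all regions) and median log2 ratio in each mouse (right, dashed lines at 1.08 and 2.24 for all regions). The shares run from 35.5% (heart muscle) to 56.4% (immune lectin-like clusters), and heart muscle is the list where the mouse labelled FAD 1 (2.37) lies above FAD 2 (1.54).

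Enrichment over input was compared with that of WT mice by edgeR's test of the difference, with the mouse as a block, over 26765 regions. None (0.0%) was higher in FAD and 1 (0.00374%), the Mdga2 region, was lower. At an unadjusted p under 0.05, 1028 were higher and 87 lower, and DESeq2 called 0. Of all 33787 regions 21849 were called in FAD 2, so its ChIP reads helped to choose most of them. These 2 counts are therefore no support for higher enrichment in FAD. With TMM scaling over the regions they were 445 higher and 568 lower. WT mice held 747 and 957 ChIP reads and 358 and 606 input reads at Mdga2, so both WT mice stood above both FAD mice in ChIP over input. The next by p lay between genes (chr6:9562975-9563234), with 196 and 15 ChIP reads over 0 and 8 in FAD and 584 and 176 over 0 and 2 in WT. It did not pass (edgeR adjusted p 0.0905).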

How the data were processed

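H3K9me2 ChIP and input chromatin were sequenced from mouse prefrontal cortex. Per the submitters' processing notes, reads passed FastQC, Trimmomatic, BWA 0.7.12 and MACS2 2.1.0, and the notes name mm9, but 96.5% of 2268 matched overlapped genes lie at their GRCm38 position, so coordinates are given as GRCm38. Reads were 50 bp single-end or 150 bp paired-end, with no library-by-library record in the sources used here. The deposited table holds the authors' read counts per region. It also holds the authors' RPM, which is (count + 1) scaled to the library total, the deposited fold enrichment (a ratio of RPM values), the deposited log2 ratios and the authors' p-values, which were not used beyond checking the formulas. Its 34413 rows gave 33787 regions.

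ChIP was tested against input on the counts with edgeR 4.0.16 (R 4.3.3; filterByExpr, library totals, mouse as a block, Benjamini-Hochberg at 0.05), the test of FAD against WT likewise, and scripts were tested on simulated data. ChIP and input with the same number come from the same mouse per the titles. Their differences from the group means correlated at -0.17 (FAD) and -0.05 (WT). With 2 mice, p-values measure the spread between these libraries only.

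Named genes are, for tested regions at or above the median abundance and leaving out predicted genes, pseudogenes and contigs: the 10 overlapped genes with the highest lower ratio of both mice, the 5 most different each way, 2 per gene list (a selection is given), the 5 with most regions at 2-fold in both mice, the 5 highest called in WT alone, the 5 lowest, and heart genes and Thy1. 1 gene that the rule names is not reported here. Members and lists were chosen with earlier results of these data known.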

Additional observations from a re-analysis of the deposited data

Results flagged for a closer look

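In intron 1 of Mdga2 (chr12:67059201-67059684) enrichment over input differed between FAD and WT mice, with a log2 difference (FAD minus WT) of -1.75 ± 0.36 (SE, 2 mice per group, edgeR's test of the difference, adjusted p 0.0426). FAD ChIP held 509 and 305 reads over 434 and 816 input reads, and WT ChIP 747 and 957 over 358 and 606. The inputs stand far above the median of 2 reads per region. The region was called in WT libraries alone, so its WT reads helped to choose it. The call was lost with TMM scaling, without the block and in DESeq2. It was also lost without FAD replicate 2 and without either WT replicate. Those fits had no block either, so they do not show whether a single mouse carried the call.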

How the results depend on the processing

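Regions higher in FAD ChIP than input, 77 in the main test, numbered 0 with TMM and 0 with DESeq2 size factors in edgeR, both computed over regions called for enrichment, 183 in DESeq2, 5285 with no replicate block, 6700 with 8 libraries in one fit, 48 at an adjusted p under 0.01 and 127 over regions of 500 bp or more. Leaving out replicate 1 or 2 gave 301 to 10277. Of the 77, 72 were also called without the block, 73 in DESeq2, 66 without replicate 1 and 41 without replicate 2. The single lower region became 0 with TMM, DESeq2 size factors, no filter, an adjusted p under 0.01 or 500 bp or more, 2 with 8 libraries, and 0 to 10 leaving out a replicate. In regions called in WT alone the 5 became 0 with TMM, 274 with no replicate block and 16 to 478 leaving out a replicate. For FAD against WT, the 0 higher became 0 to 3 and the 1 lower 0 to 2 leaving out a replicate, and the lower was 0 with TMM, no replicate block and DESeq2. The cause of these changes was not tested.

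The share at 2-fold or more in the mouse labelled FAD 1 was 28.0% at a ratio of 4, 20.1% with 5 added to each count and 28.8% with both inputs at 3 reads or more. In FAD 2 it was 59.2% at a ratio of 4 and 52.2% in regions called in neither FAD library, and its median 1.32 with 5 added and 1.12 in those regions. The correlation of the mice was 0.19 with both inputs at 3 reads or more and 0.086 in those regions. Regions at an adjusted p under 0.05 were 71.4% intergenic, 820 bp wide and 10534 bp from a start in the median, and 1.29% of tested list regions. The input floor, the split by input depth and the first 4 Mb were chosen after seeing the data.

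With TMM the log2 folds of named regions turned in Myh6 (-1.34, -1.05 and -0.055), Lpl (-0.82), Bmper (-0.61), Gpr37 (-0.54), Csnka2ip (-1.98), Prr30 (-1.58), Rptn (-0.051), Grm5 (-0.19), Tek (-0.79), Efhb (-1.93) and Actc1 (-0.056). Leaving out replicate 1 or 2, the log2 folds ran from -3.39 to 4.01, -0.46 to 2.31 and -0.34 to 4.29 in 3 regions of Myh6, -2.71 to 3.59 in Lpl, -0.91 to 7.91 in Bmper, -0.56 to 8.03 in Gpr37, -0.74 to 4.44 in Mb and -0.35 to 0.12 in Lrp1b. They ran from -3.0 to 3.34 in Csnka2ip, -2.46 to 3.48 in Prr30, -0.21 to 8.21 in Rptn and -1.93 to 0.75 in Thy1. Thy1 stood at 0.71 with no replicate block and 0.037 in DESeq2. A median of 2 input reads per region limits the precision of every ratio.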
